A study of Mus musculus with 2 samples.

Results

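Integrin subunit genes were described in 1F9 cells, a mouse thymoma line, after activation of E47-ER or of bHLH-ER. The genes were chosen by symbol, as the probes that the platform annotation names Itga4, Itga6, Itgae, Itgal, Itgam, Itgav, Itgb1, Itgb2, Itgb3 or Itgb7. Of these 10 members, 9 had a named probe (1 each) among 10208 genes with a named probe, and Itgb1 was not analysed here. The choice of members was made with the difference between the constructs in view, so every count and difference of a member is a description of these 2 arrays and not a test.

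Both cultures were 1F9 cells, which came from a tumour of an E2A -/- animal. They therefore lack both E2A products, E47 and E12, which are basic helix-loop-helix transcription factors. The E47-ER culture carried a retrovirus with E47 joined to an oestrogen receptor part, which is activated by 4-hydroxytamoxifen (4-OHT). The bHLH-ER culture carried the DNA-binding and dimerisation (bHLH) region in the same kind of fusion, without the amino-terminal transactivation domain. Both cultures received 4-OHT for 6 hours from 1 day after infection, and both were sorted on beads through the human CD25 that each virus also encodes. Both descriptions name the E47 fusion, and the constructs were told apart by the sample titles. There was 1 single-colour array of polyA RNA per construct, so the number of arrays limits the precision, no p-value or standard error can be given, and construct, culture and array cannot be told apart. All results come from 1 line, and no uninfected or untreated culture was analysed here.

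Integrins are cell surface receptors made of an alpha and a beta chain. They bind matrix proteins such as laminin and fibronectin, or cell surface ligands such as ICAM and VCAM proteins, and they link these to the actin cytoskeleton through talin and kindlins. Thymocytes use integrins with Itgb1, Itgb2 and Itgb7 beta chains when they settle in the thymus, contact stromal cells and move between its zones. E47 and other E proteins bind the E-box, a DNA motif written CANNTG.

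Promoter windows are shown because E47 is a DNA-binding factor and the members can be searched for its motif. RefSeq promoters (build GRCm38.p6) were available for 5 of the 10 members, Itga4, Itgam, Itgav, Itgb1 and Itgb7, and not for Itga6. The 250 bases before the annotated start were searched for CANNTG, for CAGCTG and for CAGGTG on both strands. The last of these reads CACCTG on the opposite strand, and CANNTG includes both of the narrower motifs. At least 1 CANNTG lay in 3 of the 5 windows and in 66.2% of all 32851 windows of this length, so a match of this kind is common. The windows of Itgav and Itgb1 held none of these letters. The window of Itga4 held the only CAGCTG among the members, a motif found in 13.0% of all windows, and no member window held CAGGTG, found in 17.2%. The window of Itga9, an integrin gene outside the member list whose difference came nearest to 2-fold, held 2 copies of CAGGTG and 1 of CAGCTG. These motifs were not particular to Itga9. Outside the member list CAGCTG also lay in windows of Itga1, Itga2b and Itgb5. CAGGTG also lay in windows of Itga3, Itga11, Itgb5, Itgb6 and Itgb8. In Itgb6 it lay only in the window of a start 48910 bases inside the gene, and not in that of the outermost start. The annotated starts used for Itgb7, Itgav and Itga9 lie inside the gene, 1470, 2094 and 104983 bases downstream of its outermost start, so these windows do not cover the outermost promoter. Each sequence is given 5′ to 3′ on the strand of the gene, with every CANNTG in capitals. The Itga4 window is chr2:79255176-79255425 (plus strand), that of Itgam is chr7:128062390-128062639 (plus strand), that of Itgb7 is chr15:102231936-102232185 (minus strand) and that of Itga9 is chr9:118711442-118711691 (plus strand).
Itga4: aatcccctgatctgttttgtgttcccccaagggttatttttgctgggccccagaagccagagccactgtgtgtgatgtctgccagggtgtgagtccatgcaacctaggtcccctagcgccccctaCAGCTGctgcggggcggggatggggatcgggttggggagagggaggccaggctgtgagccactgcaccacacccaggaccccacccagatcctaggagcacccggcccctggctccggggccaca
Itgam: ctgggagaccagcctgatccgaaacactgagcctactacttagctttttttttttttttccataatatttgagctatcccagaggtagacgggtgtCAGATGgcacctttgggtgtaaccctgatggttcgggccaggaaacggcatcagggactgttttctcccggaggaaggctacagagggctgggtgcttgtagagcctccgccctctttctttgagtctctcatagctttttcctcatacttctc
Itgb7: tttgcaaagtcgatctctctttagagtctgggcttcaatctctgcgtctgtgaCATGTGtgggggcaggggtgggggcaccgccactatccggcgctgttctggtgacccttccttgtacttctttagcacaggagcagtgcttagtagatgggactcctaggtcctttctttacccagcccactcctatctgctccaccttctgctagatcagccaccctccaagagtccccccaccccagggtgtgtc
Itga9: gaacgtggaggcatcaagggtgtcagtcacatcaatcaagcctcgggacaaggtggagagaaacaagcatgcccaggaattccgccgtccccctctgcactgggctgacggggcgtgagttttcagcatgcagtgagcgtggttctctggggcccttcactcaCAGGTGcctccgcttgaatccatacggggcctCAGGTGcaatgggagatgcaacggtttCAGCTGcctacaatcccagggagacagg
The Itga4 motif CAGCTG began 125 bases before the start. The Itgam motif CAGATG began 154 bases before the start, and the Itgb7 motif CATGTG began 197 bases before it. In Itga9 the capitals began 87, 55 and 28 bases before the start. A match is a description of the letters only, and binding of E47 was not measured.

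The deposited values are intensities on a linear scale, already background-subtracted and scaled, with medians of 0.939 on the E47-ER array and 0.950 on the bHLH-ER array. They were put on a log2 scale and centred on each array's median, and a difference is the centred log2 intensity with E47-ER minus that with bHLH-ER. A gene is called measured where its level, averaged over the arrays, was at or above that of the median probe, an intensity of about 1.03, and higher or lower where the fold was 2 or more. The 11 T lineage markers with a named probe, among them Cd3d, Cd3e, Cd3g, Thy1 and Ptcra, were all measured. Of the markers of other cells, 5 of 7 B lineage genes with a named probe passed the level limit, as did none of 6 NK genes, 2 of 5 erythroid genes and 3 of 6 fibroblast and packaging cell genes. Some markers differed between the arrays. The T lineage genes Ptcra (4.25-fold) and Rag1 (2.02-fold) and the B lineage gene Vpreb1 (2.06-fold) were past 2-fold higher with E47-ER. Of the 11 T lineage differences 9 were positive (8 with equal 75th percentiles), beside 3709 of 5563 among all measured genes. Of the 7 B lineage differences only 1 was positive, that of Vpreb1, and 2 of these 7 genes were under the level limit. Among all 9942 named genes with positive values on both arrays, 5876 differences were positive. With equal 75th percentiles Rag1 and Vpreb1 were under 2-fold, at 0.91 and 0.94 on the log2 scale. Pdgfrb, which encodes a platelet-derived growth factor receptor, was 2.23-fold lower. The 6 fibroblast and packaging cell probes split in direction, with 3 differences positive, but 3 of the 6 were under the level limit. Of the 3 measured, 1 difference was positive, that of Sparc (0.19), and 2 were negative, those of Vim (-0.66) and Pdgfrb (-1.16). All 6 probes summed to 24.9 on the E47-ER array and 38.3 on the bHLH-ER array, and Vim gave most of each sum. The part of such cells in the integrin values was not tested. The 2-fold rule found 1.35% of the 5563 measured genes higher and 0.27% lower with E47-ER, and the median difference of these genes was 0.11. In RNA from many sorted cells together, fewer cells expressing a gene and less of its RNA per cell cannot be told apart.

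Of the 9 members with a probe, 4 were measured: Itga6, Itgam, Itgal and Itgb2. One of them, Itga6, was at least 2-fold higher with E47-ER, none was 2-fold lower, and the other 3 differed by less than 2-fold. The remaining 5 members, Itga4, Itgae, Itgav, Itgb3 and Itgb7, were under the level limit on both arrays. Itgam (mean centred log2 level 0.11) lay just above the limit of -0.01, and Itgb3 (-1.03) was the nearest member under it. Because the members were chosen on this contrast, the count of 1 is given beside the 1.35% of measured genes and nothing is read from it.

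**Figure D1:**
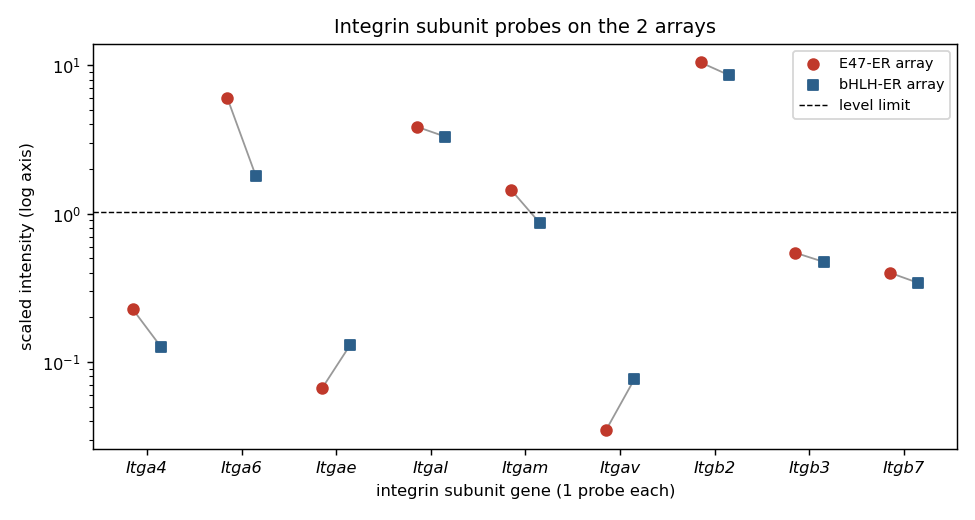
Scaled intensity (log axis) of the 9 integrin subunit probes on the E47-ER array (red circles) and the bHLH-ER array (blue squares), 1 array each, with the level limit at 1.03 as a dashed line. Itga6 stands at 6.00 with E47-ER and 1.80 with bHLH-ER, while the pairs of Itgal, Itgb2, Itgb3 and Itgb7 lie close together.

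Among the alpha chains that bind matrix, Itga6 had the largest difference of the measured members. It encodes the alpha 6 chain (CD49f), a laminin receptor chain that pairs with the products of Itgb1 and Itgb4. The Itga6 probe (Entrez gene 16403) had an intensity of 6.00 on the E47-ER array, against 1.80 on the bHLH-ER array. Both values were above the level limit, so its place among the measured genes did not depend on the brighter array. The difference was 1.75 on the log2 scale, or 3.37-fold higher with E47-ER, which is rank 17 of 5563 measured genes from the highest. The 500 probes nearest to Itga6 in level had a robust SD (from the median absolute deviation) of 0.28 for the same difference, which covers variation between genes and spots but not between cultures. The value was 1.64 with equal 75th percentiles, 1.69 with quantile normalization, 1.69 after loess on level and 1.51 when 0.5 was added to each intensity before the logarithm. Each of these is past 2-fold.

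The genes with the intensity pair most like that of Itga6 were found by the distance between genes in the plane of both centred log2 intensities, which rests on 2 arrays. The nearest of the measured genes was Mmp12, which encodes a macrophage metalloelastase, at a distance of 0.15. Its intensities were 5.73 with E47-ER and 1.64 with bHLH-ER. Nrtn, the gene of the neurotrophic factor neurturin, followed at 0.17, with 6.77 on the E47-ER array and 1.79 on the bHLH-ER array. Ets2, an ETS family transcription factor gene, was at 0.28, with 6.35 on the E47-ER array and 2.16 on the bHLH-ER array. These genes were picked for their closeness to Itga6, so their direction was set by the choice.

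Itga4 and Itgav, the other matrix-binding alpha chains, were dim and differed in opposite directions. Itga4 encodes a chain that pairs with Itgb1 or Itgb7 products and binds VCAM1, fibronectin and MAdCAM. Its intensity was 0.227 on the E47-ER array and 0.126 on the bHLH-ER array, a difference of 0.86. The robust SD among the 500 probes nearest in level was 0.52, and the Itga4 difference fell to 0.23 when 0.5 was added to the intensities. Itgav encodes the alpha V chain of vitronectin receptors. It had 0.0346 with E47-ER and 0.0764 with bHLH-ER, a difference of -1.13, at a level where the robust SD was 1.15. With 0.5 added its difference was -0.10. At these intensities the sign and size of a difference have little precision, and neither gene was measured by the level limit.

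**Figure D2:**
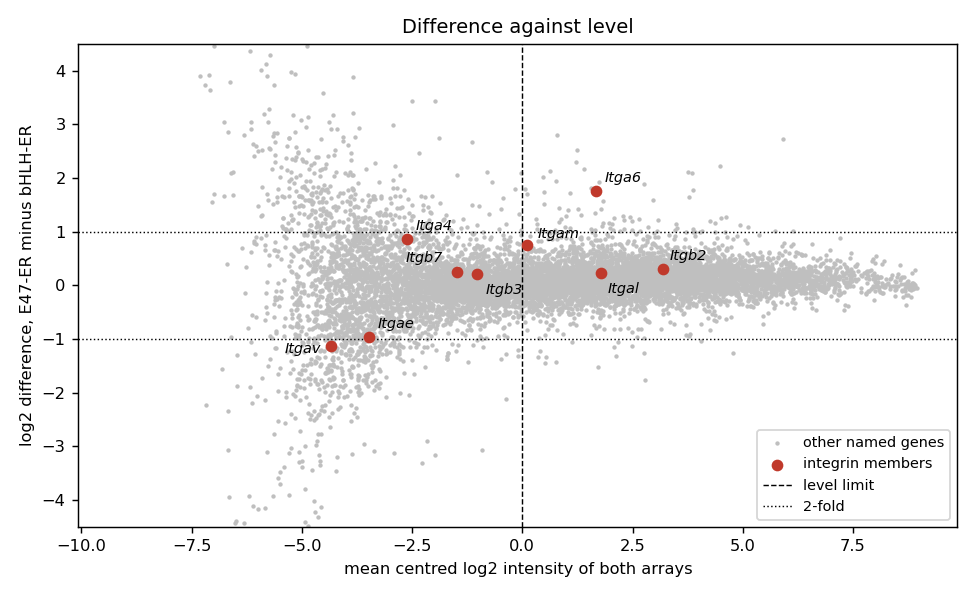
Log2 difference (E47-ER minus bHLH-ER) against mean centred log2 intensity for named genes with positive values on both arrays (grey), with the 9 integrin members in red, the level limit dashed and 2-fold dotted; 31 genes lie outside the plotted range. Differences spread widely at low level, where Itgav, Itgae and Itga4 lie, and Itga6 stands above the 2-fold line to the right of the limit.

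The 3 members of the leukocyte integrin group built on Itgb2 were brighter with E47-ER by less than 2-fold. Itgb2 encodes the shared beta chain CD18, Itgal the CD11a chain that forms LFA-1 with it and binds ICAM proteins, and Itgam the CD11b chain of Mac-1. Itgb2 had an intensity of 10.4 on the E47-ER array and 8.57 on the bHLH-ER array. Its difference of 0.30 was close to the robust SD of 0.23 among probes of like level. Itgal had 3.85 with E47-ER and 3.30 with bHLH-ER. The difference of 0.24 was under the robust SD of 0.28 at its level. With equal 75th percentiles, which shifted the measured genes by -0.11, the differences were 0.19 for Itgb2 and 0.13 for Itgal.

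Itgam is best known from myeloid cells. Its probe had 1.44 on the E47-ER array and 0.866 on the bHLH-ER array, a difference of 0.75 or 1.68-fold. The E47-ER value was above the level limit and the bHLH-ER value below it, so the gene counted as measured through the brighter array. At a looser 1.5-fold rule Itgam joined Itga6 among the higher members, where 5.41% of measured genes were that much higher and 1.24% that much lower. Myeloid markers had 11 named probes. The transcription factor gene Spi1 was the 1 measured gene among them, at 4.63 with E47-ER and 5.43 with bHLH-ER. The 10 myeloid probes with positive values on both arrays, most of whose signal was that of Spi1, summed to 6.20 on the E47-ER array and 7.05 on the bHLH-ER array, and 4 of their 10 differences were positive. Of these probes 9 were under the level limit. Among the 9, Lyz2 had 0.0562 with E47-ER and 0.0456 with bHLH-ER. Fcgr3, the brightest of the 9, had 0.432 with E47-ER and 0.487 with bHLH-ER. The part of myeloid cells in the Itgam value was not tested.

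The genes of the mucosal integrin of T cells, Itgae and Itgb7, were both under the level limit. Itgae encodes the alpha E chain (CD103), which binds E-cadherin, and pairs with the Itgb7 product, which also joins Itga4 chains in a gut homing receptor. Itgae had 0.0664 on the E47-ER array and 0.131 on the bHLH-ER array. Its difference of -0.96 was near the robust SD of 0.87 at that level, and became -0.14 with 0.5 added. Itgb7 had 0.400 with E47-ER and 0.341 with bHLH-ER. The difference was 0.24 for Itgb7, within the robust SD of 0.33 among probes of like level.

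Itgb3, which encodes the beta chain of the platelet fibrinogen receptor and of a vitronectin receptor, had 0.545 on the E47-ER array and 0.473 on the bHLH-ER array. The difference of 0.22 was under the robust SD of 0.32 at its level. Its platelet partner Itga2b had 0.0169 with E47-ER and 0.0573 with bHLH-ER. All 5 platelet and megakaryocyte markers with a named probe were under the level limit.

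Across the 9 members with a probe, 7 differences were positive and 2 negative, with a median of 0.24. For all 9942 named genes with positive values on both arrays, 5876 differences were positive and the median was 0.07. The 4 measured members had a median of 0.52, against 0.11 for all measured genes, but Itgam entered this group through its brighter E47-ER value.

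**Figure D3:**
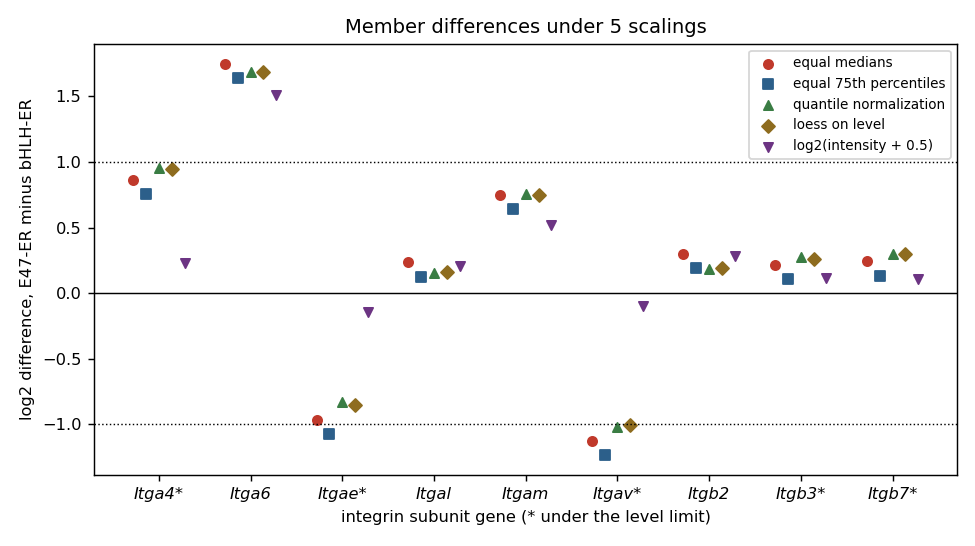
Log2 difference (E47-ER minus bHLH-ER) of each integrin member under 5 ways of scaling the intensities, with 2-fold as dotted lines and genes under the level limit starred. Itga6 stays between 1.51 and 1.75 in these settings, and the starred genes Itgae and Itgav come close to 0 when 0.5 is added to each intensity.

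Among the other integrin subunit genes, 8 of 17 listed had a named probe and 2 were measured. Itga9, whose chain pairs with the Itgb1 product and binds tenascin and VCAM1, had 2.46 on the E47-ER array and 1.24 on the bHLH-ER array. Its difference of 1.00 was just under the 2-fold rule, at 1.999-fold, and was 0.89 with equal 75th percentiles. Itgax, the CD11c chain of dendritic cells and some T cells, had nearly equal intensities of 2.22 with E47-ER and 2.23 with bHLH-ER. Itga2b, Itga3, Itga5 and Itgb5 were under the level limit. Itga2 and Itga7 lacked a positive value on 1 array each.

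The next list held genes of integrin activation and the Rap1 pathway. Of 13 with a named probe, 9 were measured. None was past 2-fold in either direction, where 1.35% of all measured genes were higher and 0.27% lower. For the 9 genes 7 differences were positive, beside 3709 of 5563 among all measured genes, and the median was 0.17. With equal 75th percentiles 5 of the 9 were positive and the median was 0.07. Cyth1, which encodes cytohesin, a regulator of Itgb2 integrins, had the highest difference, with 6.48 on the E47-ER array and 4.07 on the bHLH-ER array (1.61-fold). Fermt3, the kindlin of blood cells, had the lowest, with 13.4 with E47-ER and 16.0 with bHLH-ER. Tln1, the talin gene whose product binds beta chain tails, had 5.92 with E47-ER and 5.88 with bHLH-ER. Rassf5, which encodes the Rap1 effector RAPL, had a difference of 0.46.

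Another list held adaptors and kinases at the inner side of adhesions. Of 18 with a named probe, 9 were measured. None was 2-fold higher or lower, where the shares of all measured genes were 1.35% and 0.27%. All 9 differences were positive, beside 3709 of 5563 among all measured genes, with a median of 0.35. With equal 75th percentiles 7 of the 9 were positive. Fyn, a Src family kinase gene, had the highest difference, at 17.0 on the E47-ER array and 11.3 on the bHLH-ER array (1.52-fold). Parvg, the parvin of blood cells, had the lowest, at 29.3 with E47-ER and 27.9 with bHLH-ER. Ilk, the gene of integrin-linked kinase, stood at 0.40.

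Ligand, matrix and partner genes were mostly dim. Among 14 ligand and matrix genes with a named probe, only Icam2, which encodes a ligand of LFA-1, passed the level limit, at 3.48 on the E47-ER array and 4.45 on the bHLH-ER array. Among 8 genes of integrin-associated tetraspanins and CD47 with a probe, 4 were measured and none passed 2-fold in the scaling used. At this rule 1.35% of all measured genes were higher and 0.27% lower. Cd53, a tetraspanin of leukocytes, had 1.44 with E47-ER and 2.72 with bHLH-ER. Its difference of -0.90 became -1.01 with equal 75th percentiles, past 2-fold. Cd47, which encodes an integrin-associated surface protein, had 5.85 on the E47-ER array and 9.33 on the bHLH-ER array, a difference of -0.66. Cd82, another tetraspanin, was highest in the list at 0.38.

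Other homing and adhesion receptors split in direction. Probes were named for 11 of them. Of these, 5 were measured, 2 differences were positive and 3 negative, beside 3709 of 5563 positive among all measured genes. None of the 5 was past 2-fold, where 1.35% of all measured genes were higher and 0.27% lower. Selplg, which encodes the selectin ligand PSGL-1, had the highest difference of the 5, with 13.5 on the E47-ER array and 10.2 on the bHLH-ER array. Pecam1, an endothelial and leukocyte adhesion molecule, had the lowest, with 2.91 with E47-ER and 4.22 with bHLH-ER. Klf2, a regulator of T cell homing, was just under the level limit on average, with 0.618 on the E47-ER array and 1.54 on the bHLH-ER array (2.48-fold lower with E47-ER).

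Over all 6 lists together, 30 genes outside the members were measured, with 22 positive differences and a median of 0.19. Among all measured genes, 3709 of 5563 differences were positive, so positive differences were common in general. With equal 75th percentiles 17 of the 30 were positive and the median was 0.09. At the 2-fold rule none of the 30 was called, where the shares of all measured genes were 1.35% higher and 0.27% lower. Beside Itga9, Cyth1, Fyn, Cd53 and Cd47, no measured gene of these lists reached 1.5-fold.

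**Figure D4:**
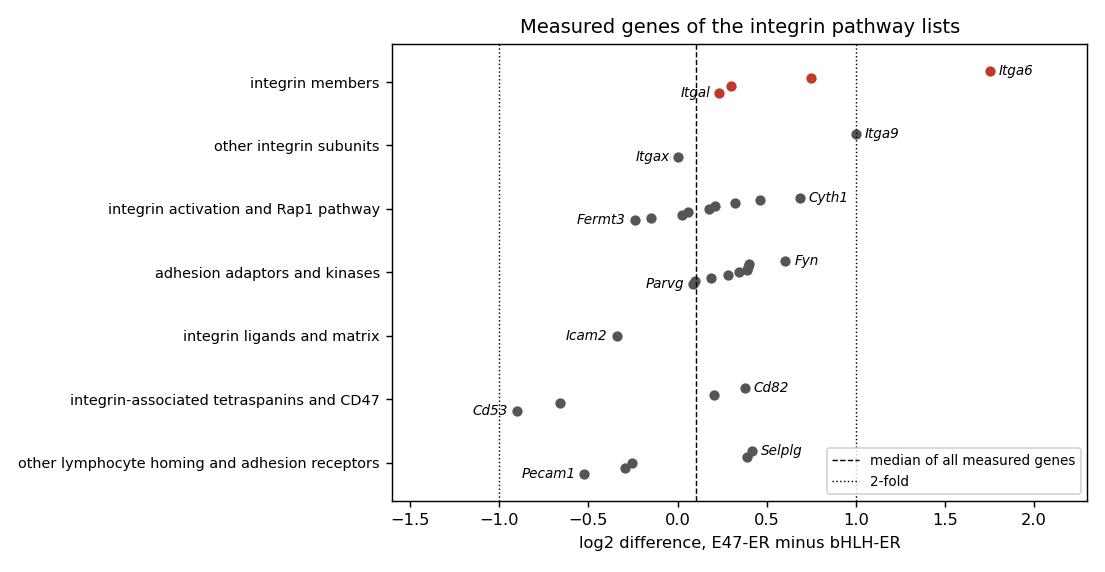
Log2 difference (E47-ER minus bHLH-ER) of the measured genes of each list, with the integrin members in red, the median of all measured genes dashed and 2-fold dotted; the genes with the lowest and the highest value are named, vertical offsets only separate points. Itga6 is the only plotted gene past a 2-fold line, and Itga9 lies on the line at 1.00.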

How the data were processed

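Single-colour (Cy3) oligonucleotide arrays measured polyA RNA, per the labels, with 1 array per construct. The authors deposited 1 linear intensity per probe and array for 20289 probes; values below 0 and nearly equal medians show that background had been subtracted and the arrays scaled, with the method not given in the sources used here. Detection calls were not part of the table. The 668 probes without a positive value on both arrays were left out. The other 19621 were put on the log2 scale and centred on each array's median (Python 3.11.15, pandas 2.3.3). Symbols came from the platform annotation, checked by Entrez ID against RefSeq (GRCm38.p6), and all 10349 named probes had 1 symbol, while 9940 were unnamed. Probes of a gene were averaged on the log2 scale. Gene coordinates are left out, since the array names no build. Over 55 measured genes with several probes, log2 differences had a pooled SD of 0.20 between probes of a gene. Simulated arrays with known changes were used to test the steps.

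The members, the 6 pathway lists and the 7 marker lists were chosen with earlier results of these data known. Named from each pathway list are genes past 2-fold (up to 3 per direction) and the measured genes with the highest and lowest difference, and for the member with the largest difference the 3 nearest genes. Other list genes with values (Tln1, Rassf5, Ilk, Cd47, Klf2, Itga2b) and the named marker genes were chosen after their values were seen. Alternatives were other scalings, loess on level, level limits, an added 0.5, the brightest probe and a 1.5-fold rule.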

Additional observations from a re-analysis of the deposited data

How the results depend on the processing

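Itga6 was past 2-fold in every alternative that kept it measured, between 1.51 and 1.75 on the log2 scale. Of the members' differences under other scalings, an added 0.5 or the brightest probe, 40 moved by less than the SD between probes of one gene. The other 5, Itga6 among them, moved by more, all with 0.5 added, and none changed sign. The count of 40 is partly set by design. Each member has 1 probe, so the brightest probe could change nothing. Equal 75th percentiles shift every gene by the same -0.11, less than that SD. The count of members past 2-fold was 1, but it was 0 with the level limit at the 75th percentile, where only Itgb2 was measured, 2 with no level limit (Itga6 higher, Itgav lower) and 2 at 1.5-fold (Itga6 and Itgam). The members' median of 0.52 became 0.30 with the limit at the 25th or the 75th percentile and 0.24 with no limit, as other members were counted. The pathway lists had 0 calls, against 1 of 30 with equal 75th percentiles (Cd53), where 1.37% of all measured genes were called. With the limit at the 25th percentile 1 of 51 was called (Klf2), beside 2.32% of all. With no limit 6 of 70 were called (2 higher, 4 lower), beside 9.21% of all. At 1.5-fold 5 of 30 were called, beside 6.65% of all. Across all 5563 measured genes, 75 were higher and 15 lower, or 52 and 24 with equal 75th percentiles. With no limit 496 of 9942 genes were higher and 420 lower. With the limit at the 25th percentile 129 of 7856 were higher and 53 lower, and at the 75th 25 of 2947 were higher and 4 lower. No paired analysis was possible because each construct has 1 array and the labels give no replicate numbers. Precision is limited by signal: Itga4, Itgae and Itgav lie where the spread between probes is wide, with a robust SD of 0.52 to 1.15. For Itgb3 and Itgb7, also under the level limit, it was 0.32 and 0.33, near the 0.28 of Itga6. No replicate array exists here to narrow the spread.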
